A study of Mus musculus with 6 samples.

Results

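The 5 hormone genes described here are Gip, Gcg, Sct, Sst and Gast, which encode the precursors of the incretins, secretin, somatostatin and gastrin. They are 5 of 23235 gene symbols in the deposited gene tables, and 5 of the 13 gut hormone genes compared here. They were chosen by symbol as hormones of the proximal gut whose transcripts differed little between the groups of this study, so the values that chose them are their differences between mutants and controls, and these are given without a test. Gast, with few reads, had a larger difference than the others. RNA sequencing was done on duodenum, the intestine just after the stomach, from 6 adult mice of 6 weeks on a mixed strain background, 1 library each. The 3 controls carried a floxed Nkx2.2 allele over a wild-type allele and no Cre, and controls 1 and 2 also carried the Rosa26Tomato reporter allele, which control 3 lacked. The 3 mutants (TNint) carried the floxed allele over the TN allele, with Villin-Cre and Rosa26Tomato. TN is, from what is known of the study, an allele of the transcription factor gene Nkx2.2 with its tinman (TN) domain mutated, and Villin-Cre acts in the intestinal epithelium. The floxed allele was thus shared by all 6 mice, and effects of Cre, of TN outside the epithelium and of the number of Nkx2.2 copies cannot be told apart from an epithelial effect of TN. The comparison asks how this mutation alters duodenal transcripts.

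Enteroendocrine cells are scattered hormone-making cells of the gut lining, each type storing peptides in granules and releasing them when nutrients or acid arrive. GIP from K cells and the proglucagon product GLP-1 from L cells are the incretins, which raise insulin release after a meal. Secretin from S cells calls for pancreatic bicarbonate when acid enters the duodenum, somatostatin from D cells restrains the other endocrine cells, and gastrin from G cells, mainly of the gastric antrum, drives acid secretion. All 5 are made as longer precursors that convertases cut. Each library mixes all cells of the wall, so fewer cells of a type and less RNA per cell cannot be told apart in what follows.

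The upstream sequences of the genes are shown because the factor mutated here binds DNA and because the 5 genes share a tissue but differ widely in level. The 250 bases before each transcription start come from RefSeq on build GRCm38.p6, a later build than the mm9 of the files, and all 5 genes were matched by symbol. Capitals mark 4 searched motifs, namely TATAA on the gene strand (the TATA box), TGACGTCA (the cAMP response element), AAGTG (the core bound by NKX2-type homeodomains) and GATAA (the GATA factor core), the last 3 on both strands, so that CACTT is AAGTG on the other strand.
Gip (chr11:96024295-96024544, plus strand): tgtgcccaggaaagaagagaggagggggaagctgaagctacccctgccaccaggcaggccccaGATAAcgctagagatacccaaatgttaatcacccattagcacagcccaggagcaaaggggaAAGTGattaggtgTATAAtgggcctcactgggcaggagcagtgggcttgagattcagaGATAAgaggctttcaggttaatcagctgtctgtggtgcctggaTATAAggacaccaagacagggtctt
Gcg (chr2:62483654-62483903, minus strand): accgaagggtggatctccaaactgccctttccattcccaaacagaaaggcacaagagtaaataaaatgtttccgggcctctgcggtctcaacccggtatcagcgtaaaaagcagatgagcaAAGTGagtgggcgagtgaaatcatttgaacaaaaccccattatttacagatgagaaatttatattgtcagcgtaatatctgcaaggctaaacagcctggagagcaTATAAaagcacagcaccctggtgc
Sct (chr7:141279134-141279383, minus strand): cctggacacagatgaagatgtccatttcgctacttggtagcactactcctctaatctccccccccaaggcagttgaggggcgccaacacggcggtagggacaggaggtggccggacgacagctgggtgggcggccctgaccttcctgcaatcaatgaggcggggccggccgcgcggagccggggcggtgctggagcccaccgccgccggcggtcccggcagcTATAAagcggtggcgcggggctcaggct
Sst (chr16:23890845-23891094, minus strand): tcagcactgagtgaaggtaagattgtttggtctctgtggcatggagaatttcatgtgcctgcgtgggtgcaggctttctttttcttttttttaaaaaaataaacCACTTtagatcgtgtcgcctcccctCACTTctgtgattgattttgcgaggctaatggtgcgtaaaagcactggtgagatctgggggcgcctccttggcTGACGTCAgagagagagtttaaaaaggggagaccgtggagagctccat
Gast (chr11:100334157-100334406, plus strand): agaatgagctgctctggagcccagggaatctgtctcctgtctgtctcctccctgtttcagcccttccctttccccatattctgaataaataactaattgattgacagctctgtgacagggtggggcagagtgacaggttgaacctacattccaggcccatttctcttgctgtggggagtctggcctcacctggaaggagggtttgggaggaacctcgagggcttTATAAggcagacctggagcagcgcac
TATAA lay between 20 and 28 bases before the start in Gip, Gcg, Sct and Gast, and Gip had a second copy at 113 to 109 bases. No TATAA was found in the Sst window. TATAA occurred in 16% of the 32851 promoters of the same length. The cAMP response element was found in Sst alone among the 5, at 48 to 41 bases before the start, and in 1.5% of all promoters. AAGTG was found once in Gip at 126 to 122 bases, once in Gcg at 129 to 125 bases, and at 146 to 142 and 121 to 117 bases in Sst, on the opposite strand. It was not found in the windows of Sct and Gast, and it occurred in 40.7% of all promoters. GATAA was found at 187 to 183 and 68 to 64 bases in Gip, in none of the other 4 windows and in 22.6% of all promoters. Base composition differed as well, with 68% G and C in Sct, 53.2% in Gast, 52% in Gip, 47.2% in Sst and 44.8% in Gcg, against a median of 52.4% over all promoters. These matches describe letters and show nothing about binding in the duodenum.

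Each gene had 1 RefSeq transcript in the files, and no other gene of the files or of the GENCODE annotation of the same build overlapped it. On mm9, Gip lies on chromosome 11 from 95885859 to 95892142 on the plus strand with 6 exons. Gast lies on the same chromosome and strand from 100195726 to 100198310 with 3 exons. Gcg lies on chromosome 2 from 62312587 to 62321710 on the minus strand with 6 exons. Sct lies on chromosome 7 from 148464237 to 148465030 on the minus strand with 4 exons. Sst lies on chromosome 16 from 23889667 to 23890930 on the minus strand with 2 exons. All are protein coding, and all have short transcripts, of 649 bases for Gip, 1091 for Gcg, 507 for Sct, 599 for Sst and 455 for Gast.

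Values are FPKM (fragments per kilobase of transcript, scaled to library size), which the authors deposited with an interval. The interval reaches 2 standard errors above the value, which gives the number of reads behind it, and by this measure the libraries held from 14.21 to 25.91 M (megareads). The targeted gene Nkx2-2 had 1, 1.03 and 1.27 FPKM in controls and 0.748, 0.744 and 0.666 in mutants, where transcripts of either allele count toward the gene. Duodenal genes were high in every library, with a summed level of 13012 to 20427 FPKM over 14 markers in controls and 13664 to 20927 in mutants, while 6 distal markers summed to at most 2.9 FPKM. Controls 1 and 2 and mutants 1 and 2 expressed Y-linked genes, whereas control 3 and mutant 3 expressed Xist (34 and 23.2 FPKM) and had under 0.06 FPKM of each of the 4 Y-linked genes. Pancreatic acinar transcripts summed to 215, 585 and 9377 FPKM in controls 1, 2 and 3 and to 2579, 2697 and 10588 FPKM in mutants 1, 2 and 3 (12 markers).

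In control duodenum Gip was the highest of the 13 hormone genes, with Sst and Sct next, Gcg in the middle and Gast near the bottom. Gip, at 133 ± 11.1 FPKM (SD, n = 3), stood above Sst at 100.2 ± 13 FPKM (SD, n = 3) with no overlap between the controls. Sst and Sct, at 98 ± 6.2 FPKM (SD, n = 3), overlapped and changed places between controls. Below them came Ghrl (ghrelin) at 64.4 ± 7.75 FPKM and Cck (cholecystokinin) at 63.3 ± 11.5 FPKM, which overlapped each other but not Sct (SD, n = 3 each). Pyy (peptide YY) followed at 11.2 ± 3.11 FPKM and Tac1 (the substance P precursor) at 8.56 ± 0.473 FPKM. Gcg was eighth at 7.33 ± 1.56 FPKM (SD, n = 3), and its range overlapped that of Tac1, although Tac1 was above Gcg inside each of the 3 controls. Nts (neurotensin) had 2.15 ± 0.65 FPKM and Iapp (amylin) 2.11 ± 1.06 FPKM. Gast came eleventh at 0.234 ± 0.212 FPKM (SD, n = 3), followed by Ppy at 0.0623 FPKM, whose range overlapped it, and Insl5, which was listed at 0 in each control. Among the 15864 rows tested, 4.72% had a higher control mean than Gip, 6.39% than Sst, 6.51% than Sct, 48.9% than Gcg and 93.5% than Gast.

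**Figure D1:**
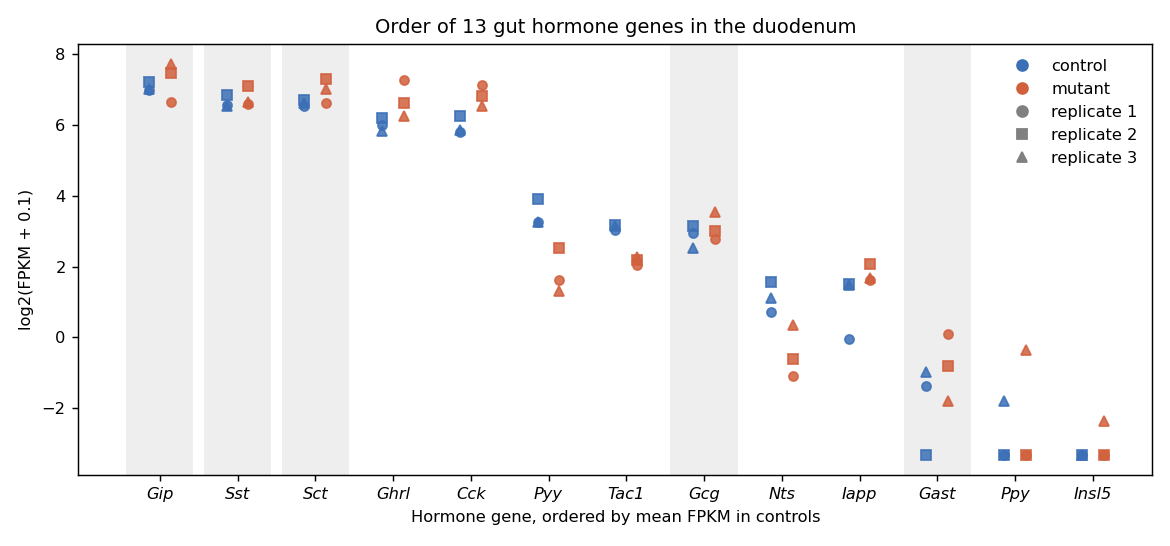
Levels of 13 gut hormone genes on the log2(FPKM + 0.1) scale (vertical axis), ordered by their mean in controls (horizontal axis), with 1 point per library, blue for controls and orange for mutants, and marker shapes for replicate numbers. Grey bands mark the 5 genes described, of which Gip, Sst and Sct lead the order in controls and Gast lies near the bottom.

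The order among the 5 genes does not use the difference between groups and was tested inside libraries, over all 10 pairs. Gip was above Sct in 6 of 6 libraries, by a mean of 0.38 ± 0.24 on the log2(FPKM + 0.1) scale (SD), and above Sst in 6 of 6 by 0.47 ± 0.34. Gcg was below Gip in 6 of 6 libraries by 4.18 ± 0.25, which is 18.2-fold, below Sct by 3.8 ± 0.32 and below Sst by 3.72 ± 0.35. Gast was below each of the other 4 in 6 of 6 libraries. Each of these 9 pairs had an adjusted p of 0.0347 (two-sided exact paired permutation test, Benjamini-Hochberg over 10 pairs), resting on 0.03125, the smallest p that 6 libraries can give. Sct was above Sst in 4 of 6 libraries, with a mean log2 ratio of 0.08 ± 0.17 and single ratios from -0.14 to 0.36 (exact permutation p = 0.312, adjusted p = 0.312), so no order between these 2 was shown. For transcripts this short the authors' FPKM used a shortened length, and values were on average 1.72 times those per full transcript length for Sct, 1.55 for Sst, 1.49 for Gip and 1.25 for Gcg. Per full length, a scale added after seeing the data, the same 9 pairs passed and the mean log2 ratio of Sct to Sst was -0.066.

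Gip, the K cell incretin, had 126, 146 and 128 FPKM in controls 1, 2 and 3 and 100, 178 and 212 FPKM in mutants 1, 2 and 3. The mutants thus lay on either side of the controls, with mutant 1 below every control and mutants 2 and 3 above every control. Controls averaged 133 ± 11.1 FPKM and mutants 163 ± 57.2 FPKM (SD, n = 3 each), a log2 difference of 0.23 (SE 0.26) on the log2(FPKM + 0.1) scale. It rested on 737 to 2028 reads per library. The difference was 0.54 without mutant 1, 0.13 without mutant 2 and 0 without mutant 3, and -0.02 in the 4 libraries with Y-linked transcripts. By number, the mutant was above the control in 2 of 3 pairs, and the SE was 0.19 with the replicate block. Pairing by number is not established and small differences chose these genes, so nothing is read from such counts here or below.

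Sct, the secretin precursor, had 92.3, 105 and 97.2 FPKM in controls and 97.6, 155 and 128 FPKM in mutants 1, 2 and 3. Mutants 2 and 3 were above every control, and mutant 1 lay among them. The means were 98 ± 6.2 and 127 ± 28.8 FPKM (SD, n = 3 each), a log2 difference of 0.35 (SE 0.16, and 0.1 with the replicate number as a block), on 386 to 1188 reads per library. The mutant was above the control of the same number in 3 of 3 pairs.

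Sst, the somatostatin precursor, had 93.3, 115 and 92.1 FPKM in controls and 95.2, 137 and 99.1 FPKM in mutants. In each group the library numbered 2 was the highest, and the other 4 libraries lay between 92.1 and 99.1 FPKM. The means were 100.2 ± 13 and 110.5 ± 23.2 FPKM (SD, n = 3 each), a log2 difference of 0.13 (SE 0.16, and 0.07 with the replicate block), on 511 to 1376 reads per library. The mutant was above the control of the same number in 3 of 3 pairs.

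Gcg, the proglucagon gene that yields GLP-1 and GLP-2 in the gut and glucagon in the pancreas, had 7.57, 8.76 and 5.67 FPKM in controls and 6.78, 7.88 and 11.4 FPKM in mutants. Control 3 was the lowest and mutant 3 the highest of the 6, and the other 4 libraries overlapped. The means were 7.33 ± 1.56 and 8.7 ± 2.44 FPKM (SD, n = 3 each), a log2 difference of 0.23 (SE 0.23), on 94 to 220 reads per library. In the 4 libraries with Y-linked transcripts the difference was -0.15, as control 3 and mutant 3, the pair with Xist, hold the extremes.

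Gast, the gastrin precursor, was barely detected. It had 0.29, 0 and 0.412 FPKM in controls 1, 2 and 3, which rest on 1, 0 and 2 reads, and 0.976, 0.475 and 0.187 FPKM in mutants, which rest on 4, 3 and 1 reads. The 0 in control 2 allows up to 0.58 FPKM (3 reads). Mutants 1 and 2 were above the controls of the same number, and mutant 3 was below control 3. The means were 0.234 ± 0.212 and 0.546 ± 0.399 FPKM (SD, n = 3 each), and the log2 difference of 1.05 (SE 0.72, from 0.31 to 2.07 with pseudocounts of 1 and 0.01) came from 3 reads in controls against 8 in mutants. Relative to all reads implied by the deposited intervals (55.4 M in controls and 64.8 M in mutants), the mutants had 2.28 times the controls. The 95% interval was 0.547 to 13.3 (exact Clopper-Pearson on the split of reads, counting error only). It pools the reads over the mice of a group, leaves out the spread between mice and is not a test of the groups. With so few reads this is a description of these libraries only.

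**Figure D2:**
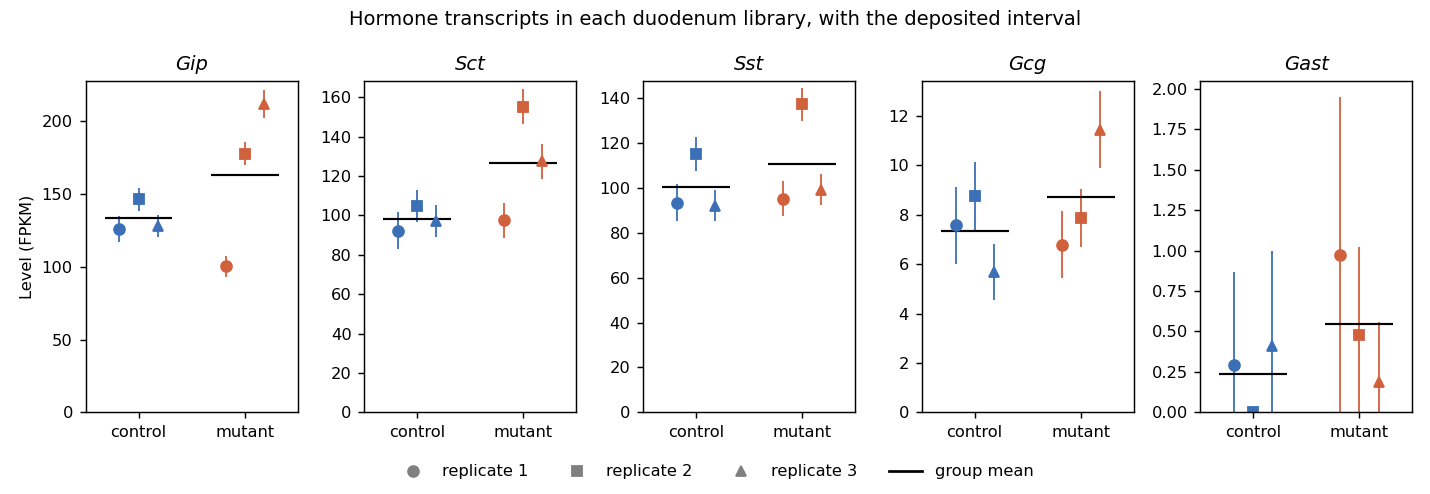
FPKM of Gip, Sct, Sst, Gcg and Gast (vertical axes from 0, a scale per gene) in 3 control and 3 mutant libraries, with marker shapes for replicate numbers, vertical lines for the deposited interval and a black line for the group mean. The groups overlap for each of the 5 genes, and mutant 1 is the lowest library for Gip while mutants 2 and 3 are the highest.

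The groups overlapped for each of the 5 genes, where 13.1% of all tested rows had groups that did not overlap (3.13% with mutants above, 9.92% with mutants below). Over all 15864 rows limma called 0 (0%) at an adjusted p of 0.05, with 922 rows (5.81%) at an unadjusted p under 0.05 and 2 rows called (0.0126%) with the replicate number as a block. Since small differences chose these 5 genes, nothing is read from their overlap. Gast was in this choice although its log2 difference, 1.05 on few reads, was not small. In the authors' deposited table, from DESeq, the mutant means were 1.28 times the control means for Gip, 1.24 for Gcg, 1.36 for Sct, 1.15 for Sst and 2.24 for Gast.

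The spread among libraries was larger in mutants than in controls for 4 of the 5 genes on the log2(FPKM + 0.1) scale, as a description of 3 libraries each. For Gip the SD was 0.12 among controls and 0.56 among mutants. For Sct it was 0.09 and 0.34, for Sst 0.18 and 0.29, and for Gcg 0.32 and 0.38. Gast, with a handful of reads, had 1.26 and 0.95. The mean counting error on this scale was 0.04 for Gip, 0.06 for Sct, 0.05 for Sst and 0.13 for Gcg, and 1.09 for Gast. Rows within 2-fold of a gene's mean FPKM give the spread usual at its level. They were matched on FPKM and not on reads or transcript length, so their counting error was not matched. Among controls, the SD was smaller than that of Gip in 57.6% of 1021 such rows, of Sct in 42.2% of 1358, of Sst in 78.1% of 1448 and of Gcg in 91.2% of 4563, so Gip and Sct lay near the middle and Gcg near the top. Among mutants, the shares were 96% for Gip, 91.8% for Sct, 88.3% for Sst and 93.6% for Gcg, so all 4 lay near the top.

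**Figure D3:**
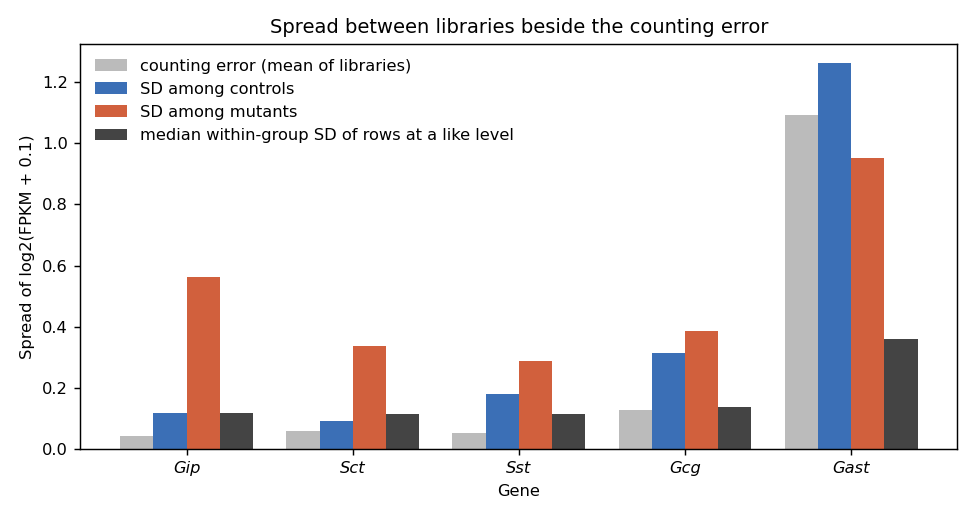
Spread on the log2(FPKM + 0.1) scale (vertical axis) for each gene: the mean counting error, the SD among 3 controls, the SD among 3 mutants, and the median within-group SD of rows within 2-fold of the gene's mean FPKM. For Gip the mutant bar (0.56) stands well above the control bar (0.12), and for Gast the counting error is about as large as the spread.

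As a share of the summed FPKM of the 13 hormone genes, the 5 genes made up 69.6%, 67.8% and 70.1% in controls 1, 2 and 3. They made up 49.8%, 68% and 71.4% in mutants 1, 2 and 3. Mutant 1 stood apart, since its Ghrl (154 FPKM) and Cck (139 FPKM) were above Gip, Sct and Sst, an order seen in no other library. Gip was 2.26, 1.91 and 2.23 times Cck in controls and 0.724, 1.57 and 2.28 times Cck in mutants. Gip alone held 27.2 ± 0.69% of the hormone sum in controls against 25.2 ± 8.49% among mutants (SD, 3 libraries each). Gcg held 1.49 ± 0.226% and 1.35 ± 0.4%, and it ranked eighth in each control and sixth in each mutant, with Pyy and Tac1 above it in controls and below it in mutants. Gcg and Pyy are both products of L cells, and Gcg was 0.808, 0.592 and 0.599 times Pyy in controls and 2.28, 1.39 and 4.79 times Pyy in mutants. Since a small difference between groups chose Gcg, its ranks and these ratios mainly restate the lower Pyy and Tac1 of the mutants. They were not tested.

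**Figure D4:**
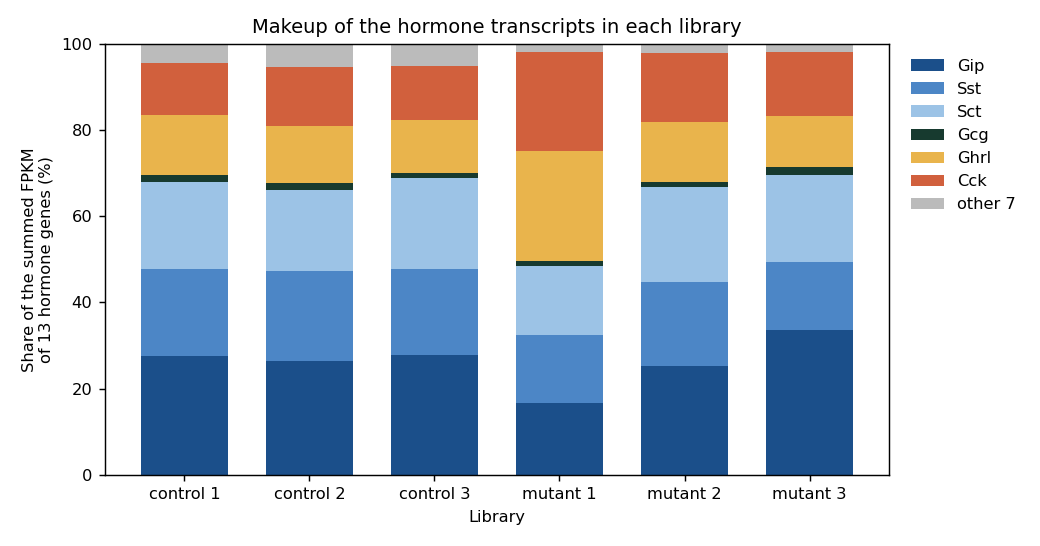
Share of the summed FPKM of 13 hormone genes (vertical axis, percent) in each of the 6 libraries (horizontal axis), stacked by gene, with Gast among the other 7. Gip, Sst and Sct fill similar shares in the 3 controls, and in mutant 1 Ghrl and Cck take a larger share, leaving the 5 genes 49.8%.

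The other 8 hormone genes had differences in both directions, and they are given beside the 5 for their values only, since none passed over all rows. Of 7 tested, 2 were higher and 3 lower at an unadjusted p under 0.05, against 1.49% and 4.32% of all rows. The log2 difference was 0.85 for Cck and 0.7 for Ghrl, and -1.65 for Pyy, -1.57 for Nts and -0.95 for Tac1. Iapp had 0.8 and Ppy 0.48, and Insl5 was below the filter. The differences of Gip, Gcg, Sct and Sst lay between those of the proximal hormones Cck and Ghrl and those of Pyy, Nts and Tac1. Since small differences chose these genes, nothing is read from this position.

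The genes that cut and package prohormones had negative differences throughout, although none passed over all rows. Of 10 tested, 10 had a negative log2 difference on the deposited scale, as had 9722 of all 15864 rows. The median of the list was -0.3 against -0.05 over all rows. It was -0.25 against 0 with trimmed mean scaling and -0.24 against -0.01 with quantile normalization. Of the 10, 3 reached an unadjusted p under 0.05, where 4.32% of rows did so in this direction. Chga, chromogranin A of the granule core, had 36.1 ± 3.93 FPKM in controls and 15.5 ± 2.62 in mutants, below every control in 3 of 3 mutants (log2 difference -1.23, limma adjusted p = 0.284, and 0.0308 with the replicate block). Chgb, chromogranin B, had 90.9 ± 5.05 and 55.7 ± 14 FPKM (log2 difference -0.73, limma adjusted p = 0.786). Pcsk1, the convertase that cuts proglucagon to GLP-1 and also processes pro-GIP, had 4.25 ± 0.491 and 3.22 ± 0.582 FPKM (SD, n = 3 each; log2 difference -0.4, limma adjusted p = 0.786). Pcsk1 was above Pcsk2, the convertase that yields glucagon in the pancreas, in 6 of 6 libraries, by 8.09 ± 1-fold in controls and 6.6 ± 0.942-fold in mutants.

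Set against Chga, Gip, Sct, Sst and Gcg stood higher in each mutant than in each control, as their choice and the lower Chga lead to. Sct was 2.85, 2.6 and 2.71 times Chga in controls and 7.39, 8.46 and 8.57 times in mutants. Sst was 2.88, 2.87 and 2.57 times Chga in controls and 7.21, 7.48 and 6.66 times in mutants. Gip was 3.7 ± 0.177 times Chga in controls and 10.5 ± 3.39 times in mutants, and Gcg 0.203 ± 0.0402 and 0.571 ± 0.177 times (SD, n = 3 each). These ratios mainly restate the lower Chga of the mutants and were not tested. Small differences between groups chose the numerators, and a small unadjusted p in the same contrast named Chga.

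**Figure D5:**
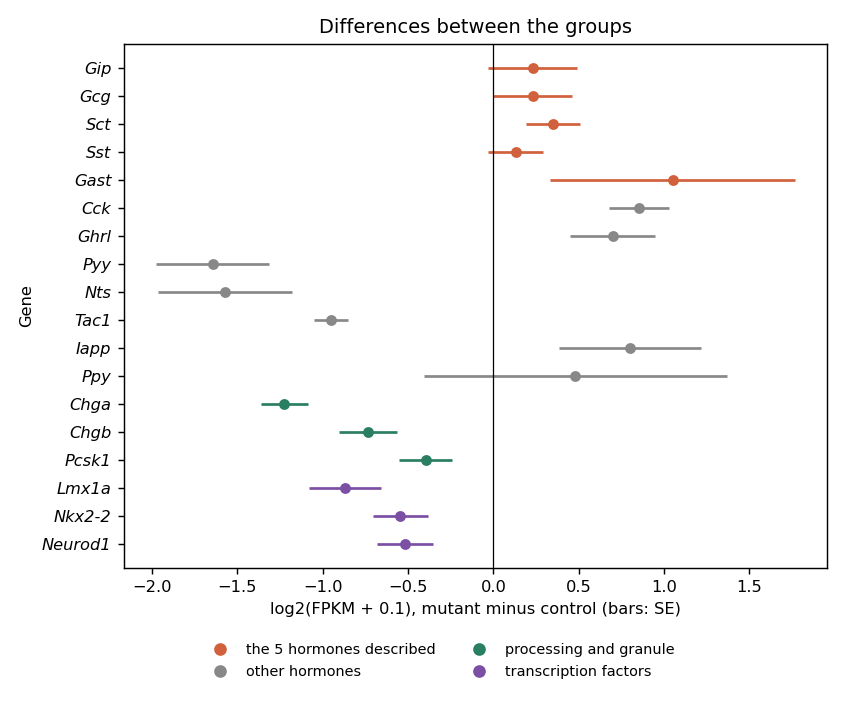
Mutant minus control differences in log2(FPKM + 0.1) (horizontal axis) for the 5 genes described, the other tested hormones and the genes of prohormone processing and endocrine transcription named in the text, with 1 SE as bars. Gip, Gcg, Sct and Sst, which were chosen for small differences, lie between 0.13 and 0.35. Cck and Ghrl lie further right, and Pyy, Nts, Tac1 and Chga left of 0.

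Transcription factors of endocrine cells had 12 of 16 differences negative, where 9722 of all 15864 rows were negative. The median of the list was -0.18 against -0.05 over all rows, and -0.09 against -0.01 with quantile normalization. At an unadjusted p under 0.05, 4 were lower and 1 higher, against 4.32% and 1.49% of all rows, and none passed over all rows (limma adjusted p = 0.786 for each named here). Lmx1a, a factor of serotonin cells, had 0.658 ± 0.0535 and 0.318 ± 0.0788 FPKM, Nkx2-2 1.1 ± 0.149 and 0.719 ± 0.0461, and Neurod1, needed for secretin and cholecystokinin cells, 2.22 ± 0.104 and 1.54 ± 0.293 FPKM.

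Receptors for the 5 peptides were at low levels in the wall, and the enzymes that break the peptides down were high. None of 11 tested members reached an unadjusted p under 0.05, and their median log2 difference was -0.01 (0.03 with trimmed mean scaling and 0.09 with quantile normalization). Dpp4, the peptidase that inactivates GIP and GLP-1, had 94.8, 88 and 85.6 FPKM in controls and 101, 72.3 and 85.1 in mutants (log2 difference -0.07, and 0.05 without mutant 2). It is the neighbour of Gcg on chromosome 2 of mm9 (62168130 to 62250288), 62298 bases away with no other row of the files between them. Mme, neprilysin, had 169 ± 47.3 and 160 ± 29.4 FPKM (SD, n = 3 each, log2 difference -0.06, and 0.16 without control 2). Glp2r, the GLP-2 receptor, had 3.15 to 4.04 FPKM over the 6 libraries. Glp1r had 0.423 to 1.4 FPKM and Gipr 0.0755 to 0.245. The secretin receptor Sctr, named here after its values were seen, had 0.414, 0.359 and 0.295 FPKM in controls and 0.244, 0.159 and 0.268 in mutants. It was the 1 receptor or peptidase of the 11 whose groups did not overlap, where 9.92% of all rows had mutants below controls (log2 difference -0.5, limma adjusted p = 0.786). The gastrin receptor Cckbr was listed at 0 in 5 libraries and at 0.0202 in mutant 3.

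Of 10 tested nutrient sensors of endocrine cells none reached an unadjusted p under 0.05, with a median log2 difference of -0.08. Ffar1, named here after its values were seen, had 0.307, 0.342 and 0.291 FPKM in controls and 0.258, 0.28 and 0.198 in mutants. It was the 1 sensor of the 10 whose groups did not overlap, where 9.92% of all rows had mutants below controls. Slc5a1, the glucose transporter that triggers GIP and GLP-1 release and also serves enterocytes, had 850 ± 69.2 and 858 ± 46.5 FPKM, and the peptide transporter Slc15a1 97.2 ± 10.1 and 89.9 ± 8.89 FPKM (SD, n = 3 each).

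Several of these hormones are also made outside the duodenal lining. Pancreatic islets make glucagon and somatostatin, and of 8 islet markers Slc30a8 and G6pc2 were listed at 0 in every library, with the list summing to 2.25 to 7.19 FPKM in controls and 4.49 to 8.71 in mutants. In control 1, which had Ins1 and Ins2 at 0, Gcg was at 7.57 FPKM and Sst at 93.3 FPKM. Ins2 was highest in control 3 (2.95 FPKM) and mutant 3 (3.82 FPKM), the libraries with the lowest and the highest Gcg. The part of islet tissue in the Gcg and Sst values was not tested. Stomach markers matter for Gast and Sst. Of 11, Muc5ac was at 0 throughout, Gkn1 in 5 of 6 libraries, and Atp4a was at most 0.132 FPKM. The sum of the list ran from 38.1 to 689.9 FPKM in controls and 90.3 to 242.1 in mutants. Most of it was Tff2 and Gkn3, so it mainly follows these genes and is not read as an amount of stomach tissue. Mutant 1, with the most Gast reads, had the highest Tff1 (2.23 FPKM), Gkn2 (0.421 FPKM) and Gif (0.406 FPKM). Control 1, with 1 Gast read, had the highest sum of the list. It also had the highest Tff2 (510 FPKM), Gkn3 (159 FPKM), Muc6 (15.7 FPKM), Pgc (3.87 FPKM), Atp4a (0.132 FPKM) and Atp4b (0.0635 FPKM). The part of stomach tissue in the Gast values was not tested. Enteric neurons also make somatostatin, and their 9 markers summed to 30.9 to 43.8 FPKM in controls and 29.9 to 33 in mutants. Control 2, the control with the most Sst, had the lowest neuronal sum of the controls (30.9 FPKM), and mutant 2, the mutant with the most Sst, had the highest of the mutants (33 FPKM). Vip was the largest part of each sum, with 28, 14.7 and 17.6 FPKM in controls 1, 2 and 3. Uchl1 had another order, with 6.21, 6.77 and 6.84 FPKM in these controls. The part of neurons in the Sst values was not tested.

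Across the 6 libraries, the genes most like each hormone were found by the root mean square (RMS) difference of log2(FPKM + 0.1) after removing each gene's own mean, among 12569 other rows of at least 1 FPKM. With 6 libraries and this many rows close matches are to be found for most patterns. Nearest to Gip were Vkorc1 (RMS difference 0.13) and Mro (0.14), to Gcg Atoh8 (0.1) and Akr1b10 (0.11), and to Sct Slc46a1 (0.09) and 2210012G02Rik (0.1). Nearest to Sst were the ferritin gene Fth1 and the glucose transporter gene Slc2a2 (0.05 each), which share its high levels in control 2 and mutant 2. Slc2a2 had 149, 177 and 151 FPKM in controls and 163, 221 and 167 in mutants. For Gast, searched among 12570 rows, the nearest were LOC100504703 (0.53) and Gpr151 (0.6), far apart on this scale. Among 37 other genes of the hormone, granule and transcription factor lists, the nearest were Sct (0.22) and Gcg (0.23) to Gip, Gip (0.23) and Pax6 (0.25) to Gcg, and Ghrl (0.88) to Gast. Isl1, a homeodomain factor of several endocrine cells, was the nearest to Sct (0.15) and to Sst (0.15), which came next to each other (0.16).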

How the data were processed

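Transcripts were measured in 3 control and 3 mutant libraries of the first 2 cm of intestine, grouped by title. The submitters' processing notes name mm9 and 4 tools, which are CASAVA 1.8.2 and, with versions not given in the sources used, TopHat, Cufflinks and DESeq. The authors deposited FPKM with an interval per gene and per transcript, and coverage per transcript. Their DESeq table holds group means of counts over size factors (a signal), and the authors' fold as a ratio and as log2. The members and the gene lists were chosen with earlier results of these data known. Nothing says the mice came from separate litters, so p-values measure only the spread between these samples.

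After leaving out rows whose mean FPKM was under 0.1, 15864 of 23699 rows, with all 5 members, were fitted as log2(FPKM + 0.1). The fit used limma (3.58.1, run in R 4.3.3), a trended prior variance, Benjamini-Hochberg adjustment and a threshold of 0.05, after a test on simulated data. The fold changes understate those of low genes. Reads behind a value were derived from its interval, and 88.2% to 88.5% of low values in genes with 1 transcript fell within 0.05 of a whole number. Replicate numbers come from the titles. The deviations of same-numbered libraries from their group means correlated across rows at 0.11, 0.21 and 0.39 (genes are not replicates). Libraries with unlike numbers gave -0.28 to 0.13, and control 1 was closer to mutant 2 (0.13) than to mutant 1 (0.11). The titles do not say what the numbers mark, so pairing by number is not established and the block is an alternative only. Alternatives were other pseudocounts, filters, scalings, no trend, a replicate block, single libraries left out, and libraries with Y-linked transcripts only. Named from the 12 lists were all hormones and, per other list, up to 4 genes at an unadjusted p under 0.05 or else the 2 highest; a symbol with several loci was taken at its first row. A gene that this rule names is not reported here. Protein sequences were not used here.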

Additional observations from a re-analysis of the deposited data

How the results depend on the processing

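Of the 15864 rows, 0 passed in limma under both other pseudocounts, without a filter, at a mean FPKM of at least 1, with trimmed mean scaling, with quantile normalization and without the trend. With the replicate block 2 passed, Chga and Mt1 (adjusted p = 0.0308 each), and in the libraries with Y-linked transcripts 1 passed, Mir719. Leaving out 1 library gave 0 to 3 genes: 2 without control 2 (Snora44 and Snora52), 3 without mutant 1 (Pm20d1, Mir215 and Ndufs5) and 2 without mutant 2 (Mir7-1 and LOC547349), all named after their values were seen, and the spread is pooled over both groups. The block changed no other call named here. At an unadjusted p under 0.05 the main split of 237 higher and 685 lower became, under trimmed mean scaling, 499 higher and 415 lower, and under quantile normalization 360 higher and 431 lower. In the libraries with Y-linked transcripts Gcg differed by -0.15 and Gip by -0.02, and apart from Gcg the differences of the 5 genes moved by less than their spread in each alternative run, where Gast has no value at a mean FPKM of at least 1. With 1 library left out, Gip ranged from 0 to 0.54, Gcg from 0.02 to 0.39, Sct from 0.19 to 0.52, Sst from -0.04 to 0.23 and Gast from 0.33 to 1.54. The 9 ordered pairs became 0 without any 1 library, since 5 libraries cannot give an exact p under 0.05 here, and each pair kept its direction. The log2 ratio of Sct to Sst was -0.066 per full transcript length. Slc5a1 (0.01) was -0.01 with quantile normalization and -0.05 to 0.07 with 1 library left out (negative without control 1 or mutant 3). Mme ranged from -0.21 to 0.16 (positive without control 2 or mutant 3) and Dpp4 from -0.19 to 0.05 (positive without mutant 2), and the cause was not tested. Depth limits Gast, with at most 4 reads per library.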
